A study of Mus musculus with 12 samples.

Results

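Clec4a1, Clec4a2, Clec4a3, Clec4n, Clec4d, Clec4e and Clec7a encode C-type lectin receptors of myeloid cells. The 7 genes form a list of the Clec4 and Clec7 groups, and the probe of each was chosen by its log2 level, as the brightest of its probes with a single gene symbol over the 12 arrays. Each gene had only 1 such probe. They are 7 of the 22180 genes with such a probe. All 7 were among the 12710 genes tested, for which the 4 arrays of some tissue had to average above a log2 level of 5.71, the median of all single-symbol values, so this filter removed no member. The list was selected on earlier results of these data, among them lower levels of Clec4a1 and Clec4a3 in fat of Mgl2-DTR mice, so the counts over it are a description and not independent evidence of a direction.

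RNA of 3 tissues, namely the liver and the epididymal and inguinal white fat depots, was measured on mouse gene arrays, with 2 arrays for each tissue and genotype and 12 arrays in all. The 2 genotypes were Mgl2-DTR and wild-type, all male mice of matched age on the C57BL/6N background. Both genotypes received diphtheria toxin intraperitoneally at 500 ng per dose every 3 days, and tissue was taken on day 10, so the wild-type mice are controls that had the toxin too. In Mgl2-DTR mice the receptor for the toxin is driven by Mgl2, which encodes the lectin CD301b, and this directs the toxin at every cell that uses that gene and not at 1 cell type of 1 tissue. Whether the replicates of a group were separate animals is not stated in the labels, and the p-values cover only the spread among the samples, which may be technical.

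C-type lectin receptors sit on macrophages, dendritic cells, monocytes and neutrophils and bind sugars and glycolipids of microbes and of damaged cells. Clec7a, known as Dectin-1, binds beta-glucan and signals through a tyrosine motif in its own tail, while Clec4n (Dectin-2), Clec4d (MCL) and Clec4e (Mincle) signal through the Fc receptor gamma chain Fcer1g; both routes reach the kinase Syk and the adaptor Card9. Clec4a2, known as DCIR, carries an inhibitory tail motif that recruits phosphatases, and Clec4a1 and Clec4a3 are its close relatives of the DCIR subfamily.

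Mgl2 itself checks the labels. Its mean log2 level was 4.22 in epididymal fat of Mgl2-DTR mice against 7.34 in wild-type mice, and 4.42 against 7.22 in inguinal fat, with limma adjusted p-values of 0.00376 and 0.00199. In liver the means were 4.31 and 4.24, both below the filter level, so Mgl2 checks nothing there. Array medians lay between 5.19 and 5.28. Adipocyte genes averaged 11.08 to 11.67 in the fat arrays and hepatocyte genes 12.37 to 12.44 in the liver arrays, as the tissue labels say. Hepatocyte genes also averaged 7.17 in wild-type replicate 2 of epididymal fat, against 5.74 to 6.03 in the other arrays of that depot. Among the inguinal arrays they were highest, at 6.95, in wild-type replicate 2. Several libraries stood apart. Genes of the epididymal duct and sperm averaged 10.91 in Mgl2-DTR replicate 2 of epididymal fat and at most 5.29 in the other 11 arrays, and the 12 macrophage genes were highest, at 10.36, in wild-type replicate 1 of that depot. In inguinal fat, skeletal muscle genes averaged 9.75 for wild-type replicate 2 and 9.29 for Mgl2-DTR replicate 1, against 6.45 and 6.27 in the other inguinal arrays. The genotype differences of the 7 members in fat are therefore also given without a pair of arrays for each depot. That pair is wild-type replicate 1 and Mgl2-DTR replicate 2 in epididymal fat, and the 2 muscle-bearing arrays in inguinal fat. The epididymal fit then keeps wild-type replicate 2, with its higher hepatocyte mean.

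In epididymal fat, Clec4a1, Clec4a3, Clec4a2 and Clec7a had both Mgl2-DTR arrays below both wild-type arrays, with differences of -1.80 to -1.43 on the log2 scale, and Clec4d, Clec4n and Clec4e overlapped between the genotypes. None of the 7 passed an adjusted p under 0.05, a threshold that 0.0315% of all genes passed in the lower direction. At an unadjusted p under 0.05 in limma, these 4 genes were lower, against 3.48% of all genes, and 14.7% of all genes had Mgl2-DTR arrays wholly below the wild-type arrays. In inguinal fat these 4 genes lay apart too, against 10.4% of all genes. None passed there after adjustment, where 0.189% of genes were called lower, and Clec4a1 and Clec4a3 were lower at an unadjusted p under 0.05, against 2.16%. In liver all 7 differences were above 0 and none passed, with 0.0315% of genes called higher after adjustment. No member had an unadjusted p under 0.05 there, against 3.16% of genes in the higher direction, and 4 of 7 lay wholly higher in Mgl2-DTR liver, against 19.2% of all genes. The median difference of the 7 was -1.43 in epididymal fat, -0.84 in inguinal fat and 0.58 in liver, beside 0.005, 0.103 and 0.011 over all genes tested. In whole tissue, fewer cells of a type and less RNA per cell cannot be told apart.

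**Figure D1:**
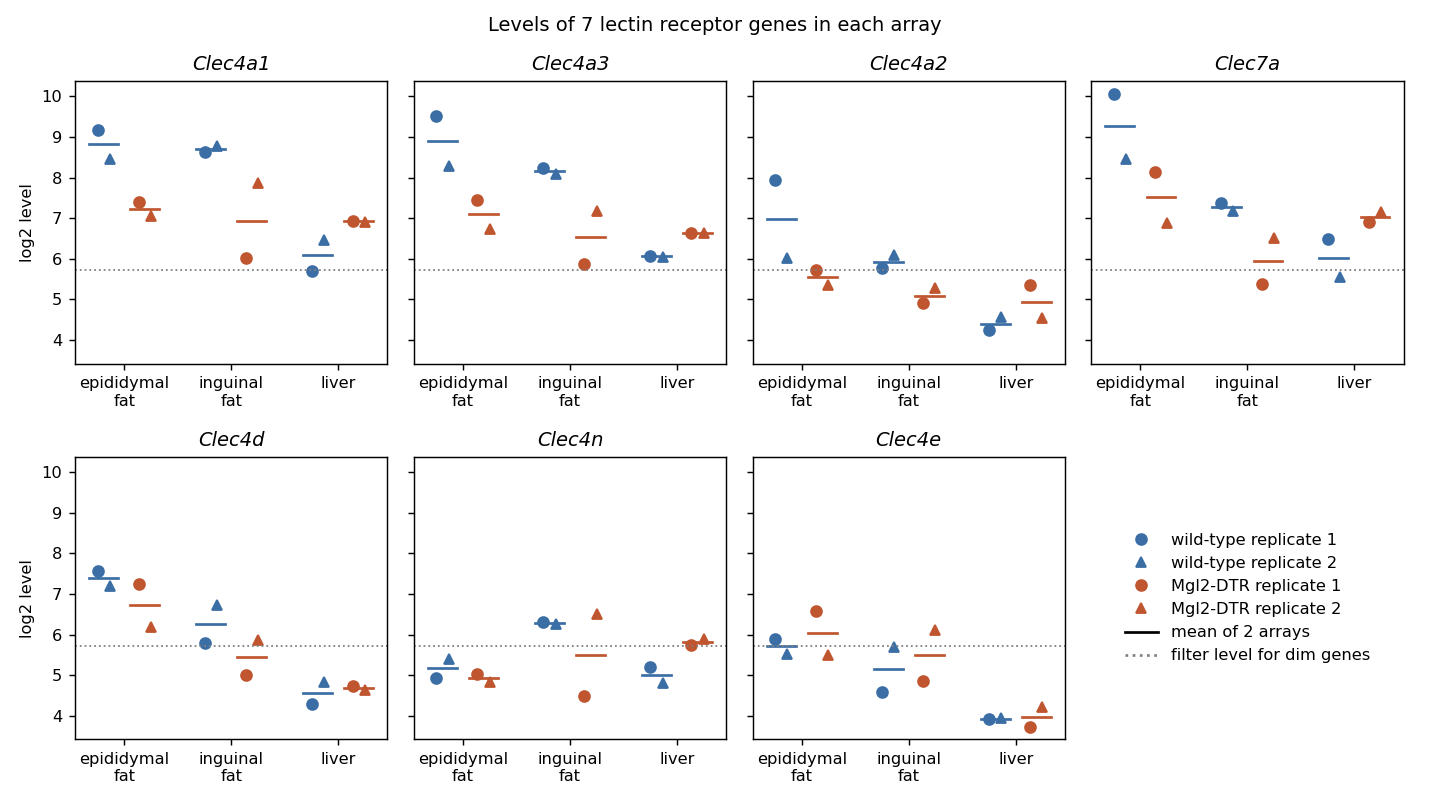
Log2 level of each of the 7 genes (vertical axis) in each of the 12 arrays, by tissue (horizontal axis) and genotype (color), with replicate 1 as circles, replicate 2 as triangles, short lines for the mean of 2 arrays and a dotted line at the filter level of 5.71. For Clec4a1, Clec4a3, Clec4a2 and Clec7a both Mgl2-DTR arrays of each fat depot lie below both wild-type arrays, while Clec4e overlaps in every tissue.

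Clec4a1 had log2 levels of 9.18 and 8.47 in wild-type epididymal fat and of 7.40 and 7.07 in Mgl2-DTR epididymal fat. In inguinal fat it was at 8.64 and 8.79 in wild-type and at 6.02 and 7.86 in Mgl2-DTR mice. Both Mgl2-DTR arrays were therefore low in each depot, with a wide gap between the inguinal pair. The difference was -1.59 (SE 0.506, 3.02-fold lower, limma adjusted p = 0.698) in epididymal fat and -1.78 (SE 0.506, adjusted p = 0.547) in inguinal fat. In liver it was at 5.71 and 6.46 in wild-type and at 6.94 and 6.91 in Mgl2-DTR mice, a difference of 0.84 (SE 0.506, adjusted p = 0.9999) with no overlap. Wild-type epididymal and wild-type inguinal fat stood at the top of its order of group means, at 8.83 ± 0.50 and 8.72 ± 0.11 (SD, n = 2), and overlapped. A gap of 1.48 separated them from epididymal and inguinal Mgl2-DTR fat and Mgl2-DTR liver, which overlapped with their neighbours, and wild-type liver was lowest.

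Clec4a3 had wild-type levels of 9.51 and 8.28 and Mgl2-DTR levels of 7.45 and 6.74 in epididymal fat. The inguinal levels were 8.24 and 8.08 in wild-type and 5.88 and 7.18 in Mgl2-DTR mice. As for Clec4a1, every Mgl2-DTR fat array was below every wild-type array of its depot. The difference was -1.80 (SE 0.460, 3.48-fold lower, limma adjusted p = 0.659) in epididymal fat and -1.63 (SE 0.460, adjusted p = 0.547) in inguinal fat. In liver, 6.08 and 6.04 in wild-type stood against 6.63 and 6.65 in Mgl2-DTR mice. The liver pairs were close within a genotype and did not overlap, at a difference of 0.58 (SE 0.460, adjusted p = 0.9999), where the SE is 1 estimate per gene shared by all 6 groups. The order of means ran from wild-type epididymal through wild-type inguinal and Mgl2-DTR epididymal fat, each apart from the next. Mgl2-DTR liver, Mgl2-DTR inguinal fat and wild-type liver followed and overlapped in turn. Mgl2-DTR epididymal fat overlapped with Mgl2-DTR inguinal fat.

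Clec4a2, the inhibitory DCIR, was at 7.93 and 6.02 in wild-type and at 5.74 and 5.37 in Mgl2-DTR epididymal fat. In inguinal fat it was at 5.77 and 6.09 in wild-type and at 4.91 and 5.28 in Mgl2-DTR mice. Wild-type replicate 1 of epididymal fat was the high array, 1.91 above its partner, and the means of both Mgl2-DTR fat groups and of both liver groups lay below the filter level. The differences were -1.43 (SE 0.517, limma adjusted p = 0.710) in epididymal and -0.84 (SE 0.517, adjusted p = 0.775) in inguinal fat. In liver, 4.25 and 4.57 in wild-type overlapped with 5.36 and 4.54 in Mgl2-DTR mice. In its order, wild-type epididymal and wild-type inguinal fat overlapped at the top, Mgl2-DTR epididymal fat stood apart from both neighbours, and Mgl2-DTR inguinal fat and the liver groups overlapped in turn.

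Clec7a, the beta-glucan receptor Dectin-1, was at 10.06 and 8.46 in wild-type and at 8.14 and 6.88 in Mgl2-DTR epididymal fat. In inguinal fat it was at 7.38 and 7.18 in wild-type and at 5.38 and 6.51 in Mgl2-DTR mice. The groups lay apart in both depots, but replicates of epididymal fat differed by 1.26 or more. The difference was -1.75 (SE 0.597, 3.36-fold lower, limma adjusted p = 0.710) in epididymal fat and -1.34 (SE 0.597, adjusted p = 0.720) in inguinal fat. In liver it was at 6.49 and 5.55 in wild-type and at 6.91 and 7.16 in Mgl2-DTR mice, a difference of 1.01 (SE 0.597, adjusted p = 0.9999) and the largest of the 7 there. Wild-type epididymal fat led its order and stood apart from Mgl2-DTR epididymal fat, which overlapped with wild-type inguinal fat. Mgl2-DTR liver stood apart from both of its neighbours but lay within the range of Mgl2-DTR epididymal fat, and wild-type liver and Mgl2-DTR inguinal fat overlapped at the bottom.

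Clec4d, which binds mycobacterial glycolipid together with Clec4e, was at 7.57 and 7.19 in wild-type and at 7.25 and 6.19 in Mgl2-DTR epididymal fat. In inguinal fat it was at 5.80 and 6.73 in wild-type and at 5.01 and 5.87 in Mgl2-DTR mice. The genotypes overlapped in both depots. The differences were -0.66 (SE 0.426, limma adjusted p = 0.799) and -0.82 (SE 0.426, adjusted p = 0.760), with 95% intervals of -1.62 to 0.30 and -1.78 to 0.14. In liver, 4.29 and 4.84 in wild-type surrounded 4.72 and 4.63 in Mgl2-DTR mice. All 4 fat groups overlapped with their neighbours in the order, and the gap of 0.77 to the liver groups was the only one without overlap.

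Clec4e, the receptor Mincle, was at 5.90 and 5.52 in wild-type and at 6.58 and 5.49 in Mgl2-DTR epididymal fat. In inguinal fat it was at 4.58 and 5.70 in wild-type and at 4.86 and 6.11 in Mgl2-DTR mice. It was the only member with fat differences above 0, and each genotype's replicates spread wider than the difference between genotypes in inguinal fat. The differences were 0.33 (SE 0.495, limma adjusted p = 0.931) and 0.34 (SE 0.495, adjusted p = 0.901). Their 95% intervals, -0.79 to 1.44 and -0.77 to 1.46, hold changes of either direction. In liver it was at 3.91 and 3.94 in wild-type and at 3.74 and 4.22 in Mgl2-DTR mice, all below the filter level. Without the pair of arrays named above for each depot it was at 1.07 in epididymal and 1.52 in inguinal fat, and passed in neither. Its sign turned where single arrays were left out, to -0.22 without Mgl2-DTR replicate 1 of epididymal fat and to -0.21 or -0.28 without wild-type replicate 1 or Mgl2-DTR replicate 2 of inguinal fat.

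Clec4n, the mannan receptor Dectin-2, was at 4.94 and 5.39 in wild-type and at 5.04 and 4.83 in Mgl2-DTR epididymal fat, below the filter level in both. In inguinal fat it was at 6.31 and 6.26 in wild-type and at 4.50 and 6.52 in Mgl2-DTR mice, so the Mgl2-DTR pair spanned the wild-type levels with a gap of 2.02, the widest of any member within a group. The inguinal difference of -0.78 (SE 0.503, limma adjusted p = 0.781) was 0.23 without Mgl2-DTR replicate 1 and 0.21 without both muscle-bearing arrays. In liver it was at 5.20 and 4.82 in wild-type and at 5.75 and 5.90 in Mgl2-DTR mice, a difference of 0.82 (SE 0.503, adjusted p = 0.9999) with no overlap. Wild-type inguinal fat had the highest mean and was apart from Mgl2-DTR liver, the next in its order, but lay within the range of Mgl2-DTR inguinal fat. All other neighbours overlapped.

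**Figure D2:**
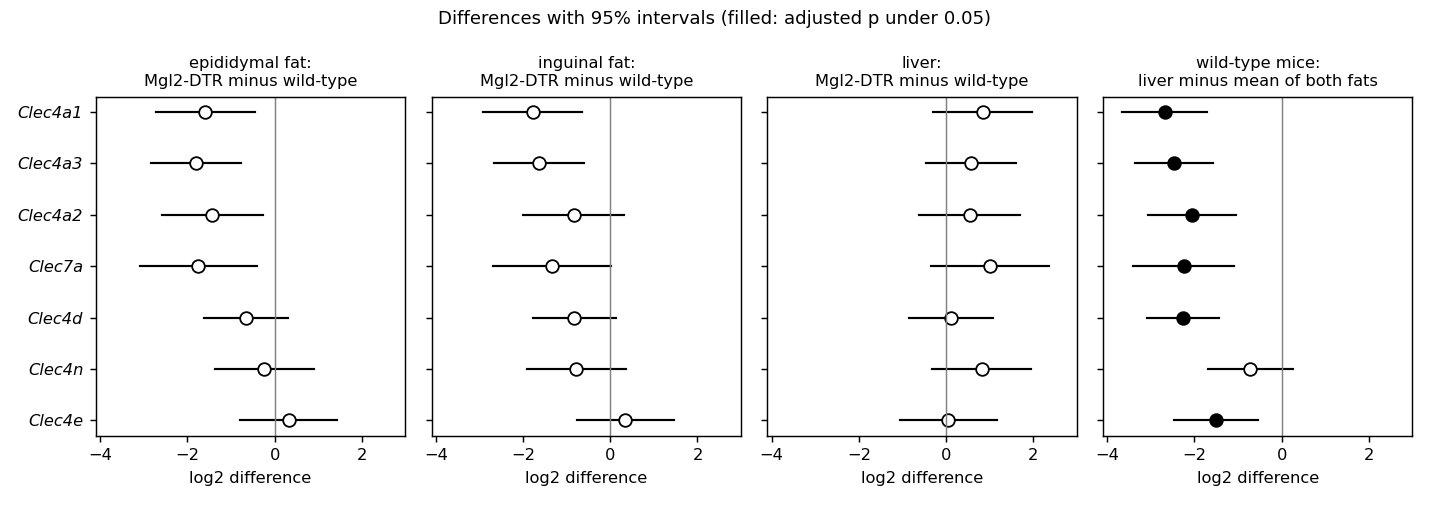
Log2 difference (horizontal axis) of each of the 7 genes with its 95% interval from limma, for the genotype difference (Mgl2-DTR minus wild-type) of each tissue and for wild-type liver minus the mean of both fat depots, where a filled circle marks an adjusted p under 0.05. No genotype difference is filled, and 6 of 7 genes are filled in the tissue comparison, Clec4n being the exception.

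The size of the epididymal differences depended on single arrays. Without wild-type replicate 1 and Mgl2-DTR replicate 2, Clec4a1 was at -1.07, Clec4a3 at -0.83, Clec4n at -0.36, Clec7a at -0.32, Clec4a2 at -0.29 and Clec4d at 0.06. This wild-type array was the higher of its pair for 6 of 7 members, all but Clec4n. The Mgl2-DTR array was the lower of its pair for all 7. Leaving out both therefore raises the differences of those 6 members by selection. It also leaves 1 array in each epididymal group, so these values do not test the differences. Without wild-type replicate 2 alone, Clec4a2 was at -2.38, Clec4a3 at -2.41 and Clec7a at -2.55. This setting leaves 1 wild-type array, the one highest in macrophage genes, whose spread is then taken from the other groups. The array left out had the highest hepatocyte mean of the fat arrays. In inguinal fat without the muscle-bearing arrays, Clec4a3 was at -1.05, Clec7a at -0.87, Clec4a1 at -0.78, Clec4a2 at -0.50 and Clec4d at 0.07. That pair held the lower Mgl2-DTR array of all 7 members and the higher wild-type array of 4, so the same limit applies. Without Mgl2-DTR replicate 2 of inguinal fat, Clec4a1 was at -2.69 and Clec4n at -1.79. The muscle-bearing replicate 1 is then the only Mgl2-DTR array of that depot. Between replicates, all 7 members were higher in Mgl2-DTR replicate 1 than in the duct-bearing replicate 2 of epididymal fat, and all 7 were higher in Mgl2-DTR replicate 2 than in the muscle-bearing replicate 1 of inguinal fat. The part of duct and muscle tissue in these results was not tested beyond leaving the arrays out.

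Over both fat depots together, the mean genotype difference was -1.71 (SE 0.326, limma adjusted p = 0.0972) for Clec4a3, -1.68 (SE 0.358, adjusted p = 0.149) for Clec4a1, -1.54 (SE 0.422, adjusted p = 0.307) for Clec7a and -1.13 (SE 0.366, adjusted p = 0.399) for Clec4a2. Clec4d was at -0.74, Clec4n at -0.50 and Clec4e at 0.34. Without the epididymal pair that stood apart, Clec4a1 was at -1.42, Clec4a3 at -1.23, Clec7a at -0.82, Clec4a2 at -0.56, Clec4d at -0.38 and Clec4e at 0.70. Without the muscle-bearing pair, Clec4a3 was at -1.43, Clec7a at -1.31, Clec4a1 at -1.19, Clec4d at -0.29, Clec4n at -0.01 and Clec4e at 0.93. None of the 7 passed, where 0.299% of genes were called lower, and 5 were lower at an unadjusted p under 0.05, against 3.72% of genes. Clec4a3 was at -2.02 when epididymal fat lacked its wild-type replicate 2 and at -1.89 when epididymal fat lacked its Mgl2-DTR replicate 1. When inguinal fat lacked its Mgl2-DTR replicate 2, Clec4a3 was at -2.04. Each setting leaves 1 array in a group, in turn the one highest in macrophage genes, the duct-bearing one and the muscle-bearing one.

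The liver difference was set against this mean fat difference, with which the comparison shares its fat arrays. The contrast was 2.55 (SE 0.732, limma adjusted p = 0.388) for Clec7a, 2.52 (SE 0.619, adjusted p = 0.269) for Clec4a1, 2.29 (SE 0.564, adjusted p = 0.269) for Clec4a3 and 1.67 (SE 0.634, adjusted p = 0.532) for Clec4a2. These 4 had an unadjusted p under 0.05, against 3.78% of genes in that direction, and none passed after adjustment, which 0.181% of genes did. Clec4n was at 1.32, Clec4d at 0.86 and Clec4e at -0.28. Without the epididymal pair that stood apart, Clec4a2 was at 1.10 and Clec7a at 1.83, and without the muscle-bearing pair Clec4n was at 0.83 and Clec4d at 0.41. Clec4a2 was at 2.15 without wild-type replicate 2 of epididymal fat. Without Mgl2-DTR replicate 2 of inguinal fat, Clec4a1 was at 2.98 and Clec4n at 1.83. Each setting leaves 1 array in a group, in turn the one highest in macrophage genes and the muscle-bearing one. Between the depots, the inguinal minus the epididymal genotype difference ran from -0.55 for Clec4n to 0.59 for Clec4a2, with adjusted p-values of 0.995 or more. No member and none of the 12710 genes passed in limma, and 364 genes had an unadjusted p under 0.05. The sign of this contrast turned for each of the 7 under at least 1 alternative.

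Across tissues of wild-type mice, all 7 receptors had lower means in liver than in fat, and 6 passed an adjusted p under 0.05 in limma. The liver minus the mean of both depots was -2.69 (SE 0.438, 6.44-fold lower, limma adjusted p = 0.000626) for Clec4a1, -2.46 (SE 0.399, adjusted p = 0.000604) for Clec4a3 and -2.05 (SE 0.448, adjusted p = 0.00358) for Clec4a2. For the activating receptors it was -2.26 (SE 0.369, adjusted p = 0.00063) for Clec4d, -2.25 (SE 0.517, adjusted p = 0.00474) for Clec7a and -1.50 (SE 0.429, adjusted p = 0.0141) for Clec4e. In these 6 genes both liver arrays lay below all 4 wild-type fat arrays. Liver and fat differ in most genes, and 34.0% of all genes were called lower in liver. Clec4a2, Clec4d, Clec4e and Clec4n were below the filter level in wild-type liver. Clec4n was also below it in wild-type epididymal fat, and Clec4e in both wild-type depots. The size of these differences may therefore be limited by a floor of the array, which was not estimated. Clec4n was at -0.72 (SE 0.435, adjusted p = 0.185). It passed without either Mgl2-DTR array of inguinal fat (adjusted p = 0.00733). Clec4e did not pass without either wild-type liver array (0.0730 and 0.0689), nor Clec7a without wild-type liver replicate 2 (0.0593).

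Between the depots of wild-type mice, Clec7a was lower in inguinal than in epididymal fat by 1.98 (a log2 difference of -1.98, SE 0.597, limma adjusted p = 0.169) and Clec4d stood at -1.11 (SE 0.426, adjusted p = 0.259). These 2 had an unadjusted p under 0.05, against 9.14% of genes in that direction. None of the 7 passed after adjustment, where 0.661% of genes were called lower. Clec4n went the other way at 1.12 (SE 0.503, adjusted p = 0.325), with both inguinal arrays above both epididymal arrays. Clec4a2 was at -1.05, Clec4a3 at -0.73, Clec4e at -0.57 and Clec4a1 at -0.11. These values depended on which wild-type epididymal array was kept. Clec4a2 (adjusted p = 0.00732) and Clec7a (-2.78, adjusted p = 0.0197) passed without replicate 2. Without replicate 1, Clec4a2 was at -0.09, Clec4a3 at -0.12, Clec7a at -1.18 and Clec4a1 at 0.24, with adjusted p-values of 0.689 or more. Clec4n passed, at 0.0392, without either Mgl2-DTR array of inguinal fat.

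Other cell type genes were read beside the receptors, and their directions differed. The 12 macrophage genes averaged 10.36 and 9.65 in wild-type and 9.14 and 8.94 in Mgl2-DTR epididymal fat, and 12 of 12 had lower means in Mgl2-DTR mice, with 0 called in limma and 7 at an unadjusted p under 0.05. In inguinal fat they averaged 9.29 and 9.49 in wild-type and 7.94 and 8.63 in Mgl2-DTR mice, with 11 of 12 lower and 3 called, the complement genes C1qa, C1qb and C1qc. Without the muscle-bearing arrays these calls were lost, as 0 of all genes passed in that comparison. In liver they averaged 8.04 and 7.90 in wild-type and 8.57 and 8.47 in Mgl2-DTR mice, with 12 of 12 higher, 0 called in limma and 3 at an unadjusted p under 0.05. The median differences of that list, -0.99, -1.16 and 0.58, stand beside -1.43, -0.84 and 0.58 for the 7 receptors and 0.005, 0.103 and 0.011 over all genes tested. At an unadjusted p under 0.05 in limma, 3.48% of all genes were lower in epididymal fat and 3.16% were higher in liver. After adjustment 0.189% of all genes were called lower in inguinal fat. The 7 Kupffer cell genes averaged 8.50 and 8.39 in wild-type and 9.15 and 9.20 in Mgl2-DTR liver, with 7 of 7 higher, 0 called in limma and 4 at an unadjusted p under 0.05. The part of the number of macrophages in the receptor differences was not tested. Of the other cells that carry these receptors, the 9 monocyte genes averaged 7.66 and 7.60 in wild-type and 7.97 and 8.02 in Mgl2-DTR epididymal fat. The 10 neutrophil genes averaged 4.49 to 5.09 in all arrays, below the filter level, and 2 of them were tested. Conventional dendritic cell genes averaged 7.02 and 6.47 in wild-type and 6.52 and 6.35 in Mgl2-DTR epididymal fat, with 6 of 6 tested genes lower. Their median there was -0.29, beside 0.005 over all genes tested, and Cd209a (-0.02), Zbtb46 (-0.05) and Kmo (-0.06) lay near 0. In limma no gene of the monocyte, neutrophil or dendritic cell lists was called in any tissue. At an unadjusted p under 0.05 there were 3, 1 and 1 such genes for epididymal fat, 1, 0 and 1 for inguinal fat and 3, 0 and 0 for liver. Over all 12710 genes tested, 887, 881 and 703 had such a p-value in these tissues. In epididymal fat Plac8 (1.54), Ace (1.09) and Ly6c2 (0.81) were higher, and Csf3r (-0.85) and Itgax (-1.67) were lower. In inguinal fat Cx3cr1 was at 0.48 and Kmo at -0.61. In liver Ly6c2 (1.09) and Treml4 (0.58) were higher and Cx3cr1 (-0.66) was lower.

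**Figure D3:**
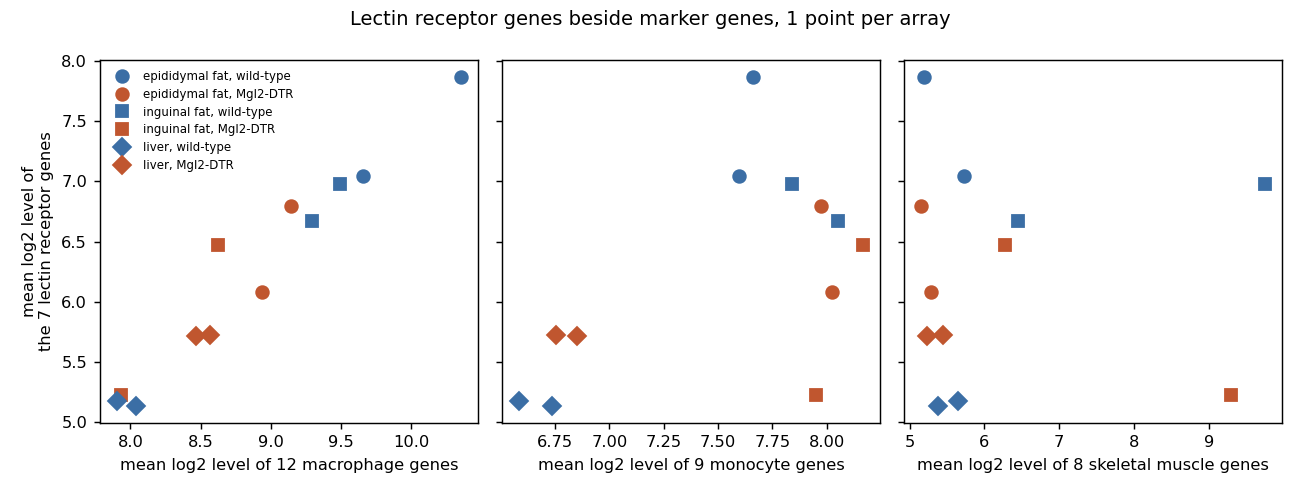
Mean log2 level of the 7 lectin receptor genes (vertical axis) beside the mean log2 level of 12 macrophage, 9 monocyte and 8 skeletal muscle genes (horizontal axes), 1 point per array, with tissue as shape and genotype as color. The array with the highest macrophage mean, 10.36, also has the highest receptor mean, 7.87, and the muscle-bearing inguinal arrays lie at receptor means of 6.97 and 5.22.

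The receptors did not all vary together. Over the 8 fat arrays, Pearson's r was 0.949 between Clec4a1 and Clec4a3, 0.904 between Clec4a2 and Clec4a3, 0.910 between Clec4a2 and Clec7a and 0.907 between Clec4d and Clec7a. Clec4n had r between -0.08 and 0.55 with the other 6, and Clec4e had r of 0.13 with Clec4a1 and 0.64 with Clec4d. These values are descriptions over arrays that share depot, genotype and foreign tissue. Leaving out the 2 arrays farthest from the median of the first gene gave 0.866, 0.862, 0.667 and 0.819 for the 4 pairs above. For the other pairs of Clec4d, r went from 0.644 to 0.172 with Clec4a1 and from 0.760 to 0.269 with Clec4a3. It went from 0.762 to 0.614 with Clec4a2, from 0.640 to 0.521 with Clec4e and from -0.074 to 0.411 with Clec4n. Between Clec4a1 and Clec4n r went from 0.545 to -0.01, and between Clec4a1 and Clec4e from 0.134 to -0.56. Between Clec4a1 and Clec7a it went from 0.739 to 0.453.

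**Figure D4:**
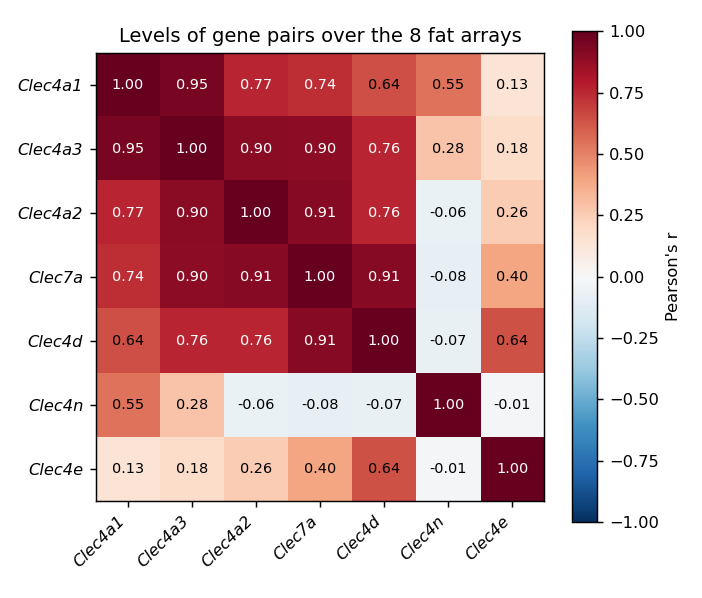
Pearson's r of log2 levels for each pair of the 7 genes over the 8 fat arrays, with color running from -1 to 1. Pairs among Clec4a1, Clec4a3, Clec4a2, Clec7a and Clec4d have r of 0.64 to 0.95 over all 8 arrays. Clec4n has its highest r, 0.55, with Clec4a1, which is -0.01 without the 2 arrays farthest from the median of Clec4a1.

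Among the tested genes outside the list, Fcgr3, the gene of a low-affinity IgG receptor of myeloid cells, was most like Clec4a3 (r = 0.986 over 12 arrays) and Clec4a1 (0.963). The next most like were Pld4 (0.980) and Cd48 (0.971) for Clec4a3, and Mrc1 (0.954), the mannose receptor, and H2-Aa (0.951), an MHC class II chain, for Clec4a1. Clec4a2 was most like Ncf4 (0.977), a subunit of the phagocyte oxidase, Fes (0.976) and Ticam2 (0.973). Clec7a was most like Clec12a (0.972), its neighbour in the same lectin cluster, Aim2 (0.964) and Cd84 (0.962). Clec4d was most like the chemokine gene Ccl9 (0.968), Dapp1 (0.959) and Cd14 (0.956), and Clec4e most like the prostaglandin synthase gene Ptgs2 (0.977), Wdr43 (0.961) and Rock1 (0.949). For Clec4n the highest values were lower, 0.872 for Gm1966, 0.860 for Ccl24 and 0.814 for Tmem29. Over the 8 fat arrays alone the leading genes were Fcgr2b for Clec4a1 (0.982), Fcgr3 for Clec4a3 (0.988), Man1c1 for Clec4a2 (0.992), Rnf130 for Clec7a (0.994), Il1a for Clec4d (0.972), Zbtb2 for Clec4e (0.947) and Mir3110 for Clec4n (0.973). Only Clec4a3 kept its leading gene. Leaving out the member's 2 extreme arrays gave leading genes r of 0.755 (Gm1966) to 0.973 (Fcgr3 with Clec4a3) over 12 arrays. Over fat it gave 0.865 (Zbtb2) to 0.985 (Mir3110). These are the highest values among all tested genes outside the list. In limma, 7262 of 12710 genes were called between wild-type liver and fat, so a high r over 12 arrays shows little by itself.

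All 7 genes lie on mouse chromosome 6 (GRCm38.p6, positions from RefSeq), the 6 Clec4 genes within one cluster from the start of Clec4a1 at 122921848 to the end of Clec4e at 123289871, and Clec7a from 129461591 to 129472785. RefSeq promoters, 250 bases before to 50 after a gene's start, were at hand for 6 of the 7 (all but Clec4n). Among the 26 pairs of promoter entries compared, the longest shared run was 17 bases, between Clec4a1, from base -222, and the second entry of Clec4a3, from base -55. That run occurred in the promoters of 2 genes, these, and the next longest run among members was 10 bases. The 2 genes are close relatives in the same cluster, and whether the run bears on their levels was not tested. It holds the letters TTCCTC, the reverse complement of GAGGAA. In the 2 windows below, on the plus strand, capitals mark the shared run. The first lies at chr6:122921620-122921649 and the second at chr6:122952583-122952612, after the first listed start of Clec4a3.
Clec4a1: ctaatgCCTGGTTCCTCTTTTTCctttcct
Clec4a3: taatgcCCTGGTTCCTCTTTTTCattcctt

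The motif GAGGAAG, a sequence bound by ETS factors such as PU.1, was searched on both strands. It was found in the promoters of Clec4a1 and Clec4d, and 13.6% of all 32851 promoters hold it. The shorter GAGGAA, which lies within it and was added after the first search, was found for 5 of the 6 genes, all but Clec4a2, and in 28.3% of promoters. The member counts are by gene, with a match in any entry, while the shares are by promoter entry. For Clec4a3 only the second entry holds GAGGAA. Examples in the activating receptors follow, with the motif or its reverse complement in capitals, at chr6:123289910-123289939 and chr6:129472858-129472887 on the minus strand and chr6:123261857-123261886 on the plus strand. A match is a description of letters and shows no binding.
Clec4e: ccttgtgcaagaGAGGAAattctgacttaa
Clec7a: aaacaggatctaGAGGAAaaaagggaaatt
Clec4d: caccaacttcTTCCTCtgttctaaagcaaa

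Genes around the receptors were read from 3 lists of the lectin pathway. Of 23 other lectin genes, 15 were tested. In epididymal fat 11 of 15 were below 0 and 1 was called lower, Mgl2. Its relative Clec10a was at -1.545 there (SE 0.408, limma adjusted p = 0.689), with no overlap. In inguinal fat 8 of 15 were below 0 and 2 were called lower, Mgl2 and Clec10a (7.82 in wild-type against 4.97 in Mgl2-DTR mice, -2.85, SE 0.408, limma adjusted p = 0.0290). At an unadjusted p under 0.05 in limma, 3 were lower in epididymal fat, against 3.48% of all genes. They were Mgl2, Clec10a and Clec12a (-1.24). In inguinal fat 4 were lower, against 2.16%, namely Mgl2, Clec10a, Mrc1 (-1.365) and Clec12a (-1.26). The 2 that were higher there, Clec4f (0.52) and Clec4g (0.50), had means below the filter level in both genotypes. Mgl2 drives the toxin receptor, so its part in these counts was set by the design and says nothing on other lectins. Without the muscle-bearing arrays Clec10a was at -2.72 and Mgl2 at -2.35, with adjusted p-values of 0.616 and 0.130, and Mgl2 in epididymal fat was at -2.97 (0.0559) without the pair that stood apart there. Clec10a also did not pass with any one inguinal or liver array left out, with adjusted p-values of 0.0850 to 0.246. In liver none passed. Clec1b, a receptor of podoplanin, was at 0.71 (adjusted p = 0.140), the Kupffer cell lectin Clec4f at 0.54 (0.691) and Clec1a at 0.30 (0.975). At an unadjusted p under 0.05 in limma 2 of 15 were higher, against 3.16% of all genes.

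Of 22 signalling genes downstream of these receptors, 19 were tested and none passed in any tissue. In epididymal fat 16 of 19 were below 0, with a median of -0.47 beside 0.005 over all genes tested. At an unadjusted p under 0.05 in limma 5 were lower, against 3.48% of all genes. The smallest p-values there belonged to Inpp5d, a lipid phosphatase that counters signalling, at -0.96 (limma adjusted p = 0.689), the kinase subunit Pik3cd at -0.95 (0.710) and Syk at -0.94 (0.710). Without the pair of arrays that stood apart these were at -0.51, -0.13 and -0.32. In inguinal fat 13 of 19 were below 0, with a median of -0.32 beside 0.103 over all genes tested. At an unadjusted p under 0.05 in limma 3 were lower, against 2.16% of all genes. They were Syk at -0.97 (0.684), Vav3 at -0.65 (0.717) and Nfatc2 at -0.51 (0.700). Without the muscle-bearing pair Syk was at -0.54 and Nfatc2 at -0.34. In liver 14 of 19 were above 0, with a median of 0.11 beside 0.011 over all genes tested. At an unadjusted p under 0.05 in limma 1 was higher, against 3.16% of all genes, and 1 was lower. Inpp5d was at 0.71 (0.791), the shared signalling chain Fcer1g at 0.80 (0.966) and Src at -0.49 (0.761).

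Of 18 cytokine and other output genes, 10 were tested and none passed. Medians were -0.07 in epididymal fat, 0.11 in inguinal fat and -0.02 in liver, with 0, 1 and 2 genes at an unadjusted p under 0.05 in limma. Over all 12710 genes tested, medians were 0.005, 0.103 and 0.011, and 887, 881 and 703 genes had such a p-value. In liver the neutrophil chemokine Cxcl1 was at 2.23 (SE 0.667, adjusted p = 0.669), with both Mgl2-DTR arrays above both wild-type arrays, Nfkbiz at 0.55 (0.774) and Tnf at -0.20 (0.9999). In inguinal fat Cxcl1 was at 0.91 (0.801), and at 1.77 without the muscle-bearing pair, Tnf at 0.62 (0.694) and Ccl3 at -0.48 (0.828). In epididymal fat Il1rn was at -0.75 (0.844), Egr2 at 0.68 (0.844) and Ptgs2 at 0.32 (0.884), and all 3 turned sign with 1 array left out. Without the pair that stood apart Il1rn was at 0.75, Ptgs2 at 0.72 and Egr2 at 0.34.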

How the data were processed

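RNA levels were read from the deposited table of normalized log2 values, 1 column for each of 12 samples. Per the submitters' processing notes, limma was used. Their normalization is not given in the sources used here, nor is the summarization of probes. Of 41345 probes, 23521 carried 1 gene symbol in the platform annotation, 1814 several and 16010 none listed. The fit used limma 3.58.1 (R 4.3.3) and gave each gene 1 mean for each of the 6 groups of tissue and genotype, with 6 residual degrees of freedom and 3.35 from the prior. All tests are two-sided, with Benjamini-Hochberg adjustment over 12710 genes. Only 2 arrays per group limit the precision. The model was tested on simulated data.

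The members, lists, markers and tests were chosen with earlier results of these data known. Genes named are the 7 members, Mgl2, called genes of each pathway list (otherwise the 3 with the smallest p) and, for each member, the 3 most correlated genes. Alternatives were other filters, probes, normalizations, variance models, blocks, thresholds and arrays left out. The labels do not say whether samples with the same number share a mouse. Deviations of same-numbered samples correlated at 0.05, -0.12 and 0.09 within a tissue and at -0.10 to 0.12 in the 12 pairs of groups of different tissues, not always over 0.1, so the numbers were not taken as pairs.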

Additional observations from a re-analysis of the deposited data

How the results depend on the processing

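Of 1333 values for single members under alternatives, 1265 kept direction and side of the threshold, 25 newly passed, 3 no longer passed and 40 turned sign. The number of members called, 0 in the genotype comparisons and 6 between liver and fat, ranged with 1 array left out from 0 to 3 in epididymal fat, 0 to 2 in inguinal fat, 0 to 2 between wild-type depots, 0 to 2 for the liver minus fat genotype difference, 0 to 4 for the mean genotype difference of both depots and 4 to 7 for wild-type liver minus fat. For that mean it was 1 with the replicate block, where 64 genes passed in place of 41 and Clec4a3 had an adjusted p of 0.0420, and 1 at an adjusted p under 0.10. With the stricter filter 3 members were called between liver and fat, since Clec4a2, Clec4d, Clec4e and Clec4n were then not tested. The replicate block changed no other member's call, and 1 lectin neighbour passed with it in inguinal fat in place of 2. A crossed block in inguinal fat, chosen after seeing the data, gave 0 members and 18 genes called in place of 25. The next brightest probe gave no value, as each member has 1 probe.

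With 1 array left out, the inguinal minus epididymal genotype difference ranged from -1.10 to 0.73 for Clec4a1, -0.36 to 1.54 for Clec4a2, -0.48 to 0.82 for Clec4a3, -1.56 to 0.46 for Clec4n, -0.69 to 0.36 for Clec4d, -0.60 to 0.64 for Clec4e and -0.39 to 1.21 for Clec7a. Without the 2 epididymal arrays that stood apart it was -0.55 for Clec4a2, -0.80 for Clec4a3, -0.72 for Clec4e and -1.02 for Clec7a. Without the 2 muscle-bearing arrays it was 0.81 for Clec4a1, 0.44 for Clec4n and 0.73 for Clec4d, and for Clec4e it was -0.017 with quantile normalization again and -0.10 with cyclic loess.

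Other values that turned sign, as ranges with 1 array left out, were Clec4a1 between wild-type depots (-0.47 to 0.24, and 0.24 without the 2 epididymal arrays), Clec4n in inguinal fat (-1.79 to 0.23) and over both depots (-1.01 to 0.001), Clec4d in liver (-0.16 to 0.39), and Clec4e in epididymal fat (-0.22 to 0.88), inguinal fat (-0.28 to 0.96), liver (-0.19 to 0.29) and liver minus fat (-0.60 to 0.026). Clec4n and Clec4d in inguinal fat were 0.207 and 0.072 without the muscle-bearing arrays, and Clec4d in epididymal fat was 0.055 without the other pair. Among output genes, Egr2 (-0.29 to 1.64), Il1rn (-2.01 to 0.50, and 0.75 without the pair) and Ptgs2 (-0.056 to 0.69) turned in epididymal fat and Ccl3 (-1.16 to 0.20, and 0.35 without muscle) in inguinal fat. The cause was not tested. The median inguinal difference of all genes, 0.103, was 0.042 with quantile normalization and 0.004 with cyclic loess, where Clec4a1 and Clec4a3 were at -1.88 and -1.73. Of the liver calls over all genes, 9 in the main fit, 55.6% were lower, against 44.4% and 45.5% under these scalings. With so few calls, single genes move these shares. Values below the filter level, as for Clec4e in liver, may limit the size of a difference.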
